A study of Mus musculus with 4 samples.

Results

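The Schlafen (*Slfn*) genes of the mouse lie side by side in a single cluster on chromosome 11. Their mRNA was examined in LSK cells of the fetal liver (FL), the fraction without lineage markers that carries Sca-1 and c-Kit and is enriched for hematopoietic stem cells. The members are the rows of the deposited table named *Slfn1*, *Slfn2*, *Slfn3*, *Slfn4*, *Slfn5*, *Slfn8*, *Slfn9* and *Slfn14*, and all 8 were found among 39186 genes. They were selected on results of these same samples, since the family was picked with the difference between *Pich*-KO and *Pich*-WT known. For that reason the members' differences between the genotypes are a description and carry no test. The table holds 3 other rows whose names start with *Slfn*, namely the pseudogene *Slfn10-ps*, the antisense gene *Slfn5os* and *Slfnl1* on chromosome 4.

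RNA sequencing was done on sorted fetal liver LSK cells from 2 *Pich*-KO and 2 *Pich*-WT samples, all of the C57BL/6 strain. PICH is a DNA translocase that acts on the DNA bridges between separating chromosomes, and the knockout is a small deletion made with TALENs near the start of exon 2 of this X-linked gene, present in every cell of the embryo rather than in blood cells alone. The labels give no embryo age, the study's methods describe sorting from mid-gestation fetal livers, and the labels do not say whether a sample is 1 embryo or a pool. The spread between samples may therefore be technical in part. *Pich* mRNA, listed as *Ercc6l*, had normalized counts of 1142 and 1232 in the *Pich*-KO and 772 and 661 in the *Pich*-WT samples. The deleted allele is thus still transcribed, and its mRNA does not check the labels.

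The samples held 14703215 to 20933919 reads on genes. A normalized count here is the number of reads on a gene divided by a size factor for the sample, scaled so that 1 unit is 1 read in *Pich*-WT sample 2. The 4 Y-linked genes counted had 1607 and 2848 reads in *Pich*-KO, 2753 in *Pich*-WT sample 1 and 0 in *Pich*-WT sample 2, so the sex of the embryos differed between the *Pich*-WT samples.

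Schlafen genes encode cytoplasmic and nuclear proteins that share an N-terminal core and are known as interferon-inducible genes in several cell types. Type I interferon binds the receptor IFNAR1-IFNAR2, the kinases JAK1 and TYK2 pass the signal on, and a transcription factor complex that contains IRF9 binds a DNA element called the interferon-stimulated response element (ISRE). Mouse Schlafen proteins are sorted by size into a short group (*Slfn1* and *Slfn2*), an intermediate group (*Slfn3* and *Slfn4*) and a long group (*Slfn5*, *Slfn8*, *Slfn9* and *Slfn14*) that carries a helicase-like C-terminal part. Several members act on RNA, by cleaving or shielding tRNA and ribosomal RNA, and *Slfn2* is known for keeping T cells and monocytes quiescent.

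The coding sequences of GENCODE M21 follow these groups. They had 337 and 378 codons in *Slfn1* and *Slfn2*, 640 and 602 in *Slfn3* and *Slfn4*, and 884 in *Slfn5*, 910 in both *Slfn8* and *Slfn9* and 899 in *Slfn14*. The closest pairs were *Slfn8* with *Slfn9*, whose coding sequences were identical at 92.7% of the bases of the shorter one, and *Slfn3* with *Slfn4*, at 91.6%. Every other pair lay between 58.4% and 76.1%.

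The promoters are shown because the ISRE is an element through which type I interferon reaches its target genes. Promoter sequences of RefSeq on GRCm38.p6, from 250 bases before to 50 bases after the start of transcription, were matched for all 8 members. The ISRE core was searched as GAAA, any pair of bases and GAAA again, on both strands. It occurred in the promoters of *Slfn5*, *Slfn8* and *Slfn9*, which is 3 of 8 members, against 3.99% of the 27025 genes with a promoter of this length (3.44% of 32851 promoters). The stretches around these matches are given from 5′ to 3′ on the strand of the gene, with the match in capitals, at chr11:82951907-82951996 on the plus strand for *Slfn5*, chr11:82991826-82991915 on the minus strand for *Slfn9* and chr11:83020809-83020898 on the minus strand for *Slfn8*.
Slfn5: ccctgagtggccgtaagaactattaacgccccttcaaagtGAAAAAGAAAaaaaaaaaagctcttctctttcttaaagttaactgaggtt
Slfn9: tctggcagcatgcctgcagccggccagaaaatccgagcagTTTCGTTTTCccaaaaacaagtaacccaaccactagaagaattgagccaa
Slfn8: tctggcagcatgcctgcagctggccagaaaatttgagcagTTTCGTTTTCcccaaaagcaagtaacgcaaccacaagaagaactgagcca

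In *Slfn8* and *Slfn9* the match reads on the opposite strand, at positions −48 to −39 from the first start of *Slfn8*, −136 to −127 from its second start and −45 to −36 from the start of *Slfn9*, and the promoters of this pair were identical at 82.7% of their 300 bases. The matches of this pair have the same letters, so they are not independent of each other in the count of members. In *Slfn5* the match lies at −155 to −146 on the strand of the gene. *Slfn4* had no match of this spacing. With 1 to 3 bases allowed between the repeats, a match appeared in *Slfn4* as well, at −214 to −206. Such a match was held by 9.91% of genes (8.61% of promoters). It is shown because *Slfn4* had the highest fold change of the family, at chr11:83174936-83175020 on the plus strand.
Slfn4: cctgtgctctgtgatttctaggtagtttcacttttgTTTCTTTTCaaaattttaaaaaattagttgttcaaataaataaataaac

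*Slfn1*, *Slfn2*, *Slfn3* and *Slfn14* had no ISRE match of either kind in this window. The interferon-gamma activated site (TTC, any 3 bases, GAA), an NF-kB motif (GGG, any pair of bases, TTTCC) and the PU.1 motif were found in 0 members. They were found in 9.55%, 1.895% and 3.69% of all genes with a promoter of this length. The GATA motif AGATAA was found in *Slfn9* alone, against 12.7% of these genes. These matches describe letters and do not show that a factor binds.

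In *Pich*-KO LSK cells 6 members had higher mRNA levels than in *Pich*-WT, *Slfn4* and *Slfn5* the most, *Slfn14* had a lower level, and *Slfn1* did not separate the genotypes. Across all genes limma, a linear model with a moderated variance fitted to log2(normalized count + 1), called 2459 of 32428 genes higher (7.58%) and 3113 lower (9.6%) in *Pich*-KO at an adjusted p under 0.05. Among the 16280 genes whose mean was 10 or more, which all members are, the shares were 14.7% and 18.7%. The same fit called 6 of 8 members higher and 1 lower, and nothing is read from this count because the contrast chose the members. In bulk samples a lower share of expressing cells and less mRNA in each cell cannot be told apart.

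**Figure D1:**
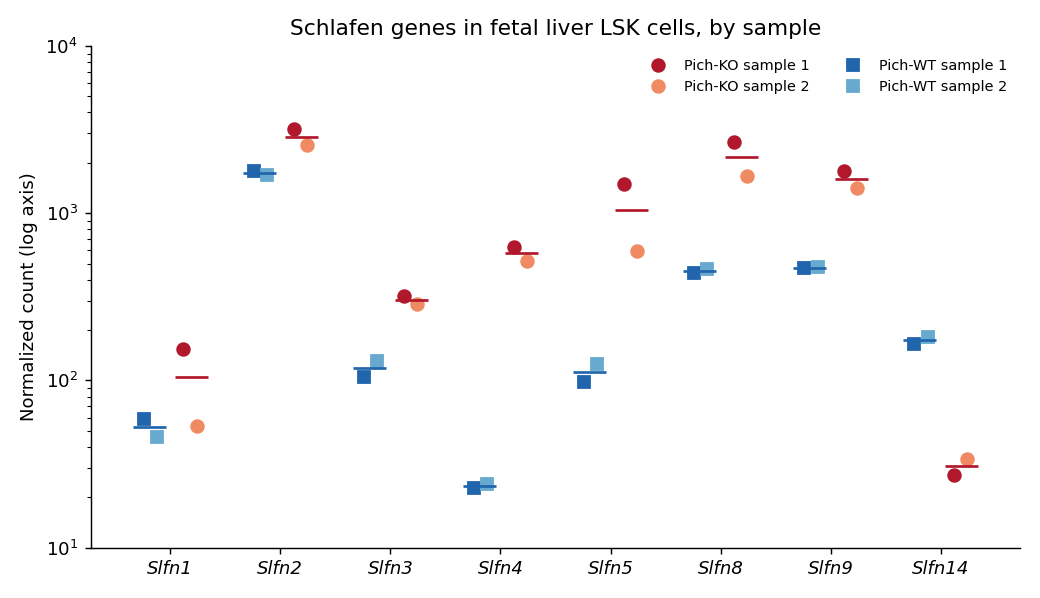
Normalized count (log axis) of each Schlafen gene in every sample. Circles are the *Pich*-KO and squares the *Pich*-WT samples, and horizontal lines are group means of 2 samples. The circles lie above the squares for *Slfn2*, *Slfn3*, *Slfn4*, *Slfn5*, *Slfn8* and *Slfn9*, and below them for *Slfn14*. For *Slfn1* a circle lies above both squares and the other lies between them.

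Among the intermediate genes, *Slfn4* (ENSMUSG00000000204, chromosome 11, 83175186 to 83190216, plus strand) is known as a gene of myeloid cells that is induced by interferon and by macrophage activation. It had normalized counts of 632 and 521 in *Pich*-KO samples 1 and 2 and of 22.7 and 24 in *Pich*-WT samples 1 and 2. Both *Pich*-KO samples were far above both *Pich*-WT samples, and samples of a genotype were close. The means were 576 ± 78.4 (SD, n = 2) and 23.3 ± 0.945 (SD, n = 2), a 24.7-fold ratio and a log2 fold change of 4.56 (standard error 0.24). A log2 fold change this high was reached by 0.0246% of genes whose mean was 10 or more. This share is a description and no test, because the contrast chose the members.

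*Slfn3* (ENSMUSG00000018986, 83191330 to 83215154, plus strand) begins just downstream of *Slfn4* and is close to it in sequence. Its normalized counts were 321 and 285 in the *Pich*-KO and 106 and 131 in the *Pich*-WT samples. The groups did not overlap, but the step was smaller than that of *Slfn4*, with means of 303 ± 25 and 118 ± 18 (SD, n = 2 each) and a log2 fold change of 1.36 (standard error 0.22). Per kb of gene length, *Slfn4* stood at 0.185 and 0.158 of *Slfn3* in the *Pich*-WT samples and at 1.69 and 1.57 of it in the *Pich*-KO samples. The order of the pair was thus opposite in the genotypes, in every sample.

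Of the long genes, *Slfn5* (ENSMUSG00000054404, 82951349 to 82964840, plus strand) is a nuclear Schlafen protein studied as a brake on cell growth and on viral transcription. Its normalized counts were 1495 and 595 in *Pich*-KO samples 1 and 2 and 98.5 and 125 in the *Pich*-WT samples. Both *Pich*-KO samples were above the *Pich*-WT samples, yet *Pich*-KO sample 1 was 2.52-fold above sample 2, a gap matched or passed by 5.61% of genes whose mean was 10 or more. The means were 1045 ± 637 and 112 ± 18.8 (SD, n = 2 each), a log2 fold change of 3.08 (standard error 0.38). Its size rested on the sample used, since it was 2.41 without *Pich*-KO sample 1 and 3.74 without *Pich*-KO sample 2.

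*Slfn8* (ENSMUSG00000035208, 83002158 to 83020810, minus strand), a long member described in lymphoid and myeloid cells, had normalized counts of 2657 and 1659 in the *Pich*-KO and 437 and 465 in the *Pich*-WT samples. Its groups stood apart, with means of 2158 ± 706 and 451 ± 19.9 (SD, n = 2 each) and a log2 fold change of 2.22 (standard error 0.21). *Slfn9* (ENSMUSG00000069793, 82978390 to 82991830, minus strand), its close copy, had counts of 1782 and 1421 against 468 and 478. Its groups stood apart as well, with means of 1602 ± 255 and 473 ± 6.98 (SD, n = 2 each) and a log2 fold change of 1.75 (standard error 0.15). Per kb, *Slfn8* was 2.17 and 1.70 times *Slfn9* in the *Pich*-KO and 1.36 and 1.42 times in the *Pich*-WT samples.

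*Slfn14* (ENSMUSG00000082101, 83275110 to 83286726, minus strand) is known for binding ribosomes and cleaving RNA, and variants of its human counterpart cause a platelet disorder. It went the other way, with normalized counts of 27.3 and 34.1 in the *Pich*-KO and 165 and 182 in the *Pich*-WT samples. These rest on 25 and 30 reads for *Pich*-KO and on 211 and 182 reads in *Pich*-WT. Both *Pich*-KO samples were below both *Pich*-WT samples, the means were 30.7 ± 4.83 and 173 ± 12.1 (SD, n = 2 each), and the log2 fold change was −2.47 (standard error 0.28), or 5.65-fold lower.

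*Slfn2* (ENSMUSG00000072620, 83065112 to 83070678, plus strand), which holds T cells and monocytes in quiescence and shields tRNA from the nuclease angiogenin, had normalized counts of 3180.5 and 2543 in the *Pich*-KO and 1797 and 1682 in the *Pich*-WT samples. The groups did not overlap, with means of 2862 ± 451 and 1740 ± 81.6 (SD, n = 2 each). Its log2 fold change of 0.71 (standard error 0.13) was the smallest among the members that were called.

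*Slfn1* (ENSMUSG00000078763, 83116849 to 83122670, plus strand), the founding member, is known for slowing the growth of T cells when overexpressed. It had normalized counts of 155 and 53.4 in *Pich*-KO samples 1 and 2 and of 58.6 and 46.0 in the *Pich*-WT samples. *Pich*-KO sample 2 fell between the *Pich*-WT samples, so the groups overlapped, and *Pich*-KO sample 1 stood 2.90-fold above sample 2. The means were 104 ± 71.7 and 52.3 ± 8.92 (SD, n = 2 each) and the log2 fold change was 0.80 (standard error 0.48), which was 0.04 without *Pich*-KO sample 1 and 1.56 without *Pich*-KO sample 2.

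In counts of separation, 6 of 8 members had both *Pich*-KO values above both *Pich*-WT values, as had 28.9% of all tested genes, and 1 member had both below, as had 27.2%. Beside the members, the pseudogene *Slfn10-ps* had 287 and 233 in the *Pich*-KO and 118 and 171 in the *Pich*-WT samples, with a log2 fold change of 0.86 (standard error 0.25), which missed the threshold. *Slfn5os* had 1 read in each *Pich*-WT sample and 0 in each *Pich*-KO sample, and *Slfnl1* had at most 3 reads in any sample, so neither can be compared at this depth.

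The genes share sequence, which bears on how reads were split between them. Of all stretches of 50 bases in their transcripts, 14.6% of those of *Slfn8* and 11.9% of those of *Slfn9* also occurred in transcripts of another gene, mostly *Slfn10-ps* and each other. The share was 16% for *Slfn3* and 11.3% for *Slfn4*, 11.1% for *Slfn5*, 4.27% for *Slfn2*, 0.606% for *Slfn1* and 0 for *Slfn14*. At 100 bases no member passed 6.40%, the value of *Slfn5*, whose overlap is with *Slfn5os*. The read length and the handling of reads with several matches are not given in the sources used here, so values of *Slfn8*, *Slfn9*, *Slfn3* and *Slfn4* are uncertain by an unknown amount. Use of strand is not given either, so reads of *Slfn5* and *Slfn5os* cannot be told apart where the genes overlap.

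Levels of different genes were compared per kb of gene length. In *Pich*-WT LSK cells *Slfn2* was highest at 1046 ± 49.1 normalized counts per kb, followed by *Slfn8* at 110 ± 4.86, *Slfn9* at 79.3 ± 1.17, *Slfn14* at 46.8 ± 3.26, *Slfn3* at 34.7 ± 5.29, *Slfn1* at 28.1 ± 4.78, *Slfn5* at 17.7 ± 2.97 and *Slfn4* at 5.89 ± 0.238 (SD, n = 2 each). Samples of neighbours in this order did not overlap except for *Slfn3* and *Slfn1*. With coding length in place of gene length *Slfn9* came before *Slfn8*. In *Pich*-KO cells the order was *Slfn2* at 1719.8 ± 271, *Slfn8* at 527 ± 173, *Slfn9* at 268 ± 42.8, *Slfn5* at 165 ± 101, *Slfn4* at 145 ± 19.8, *Slfn3* at 88.8 ± 7.33, *Slfn1* at 55.9 ± 38.5 and *Slfn14* at 8.28 ± 1.30 (SD, n = 2 each). Here *Slfn5* and *Slfn4* overlapped and the other neighbours did not. *Slfn4* thus stood last in *Pich*-WT and *Slfn14* last in *Pich*-KO.

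The make-up of the family changed with these levels. *Slfn2* made up 77.5% and 75.3% of the summed count per kb in the *Pich*-WT samples and 55.6% and 60.7% in the *Pich*-KO samples. The share of *Slfn8* was 7.66% and 8.47% in *Pich*-WT and 18.9% and 16.1% in *Pich*-KO, and that of *Slfn4* was 0.410% and 0.451% against 4.63% and 5.21%. *Slfn14* made up 3.19% and 3.66% in *Pich*-WT and 0.214% and 0.365% in *Pich*-KO. The sum itself was 1394 and 1343 per kb for *Pich*-WT and 3439.7 and 2519 for *Pich*-KO, a 2.18-fold ratio of the means.

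**Figure D2:**
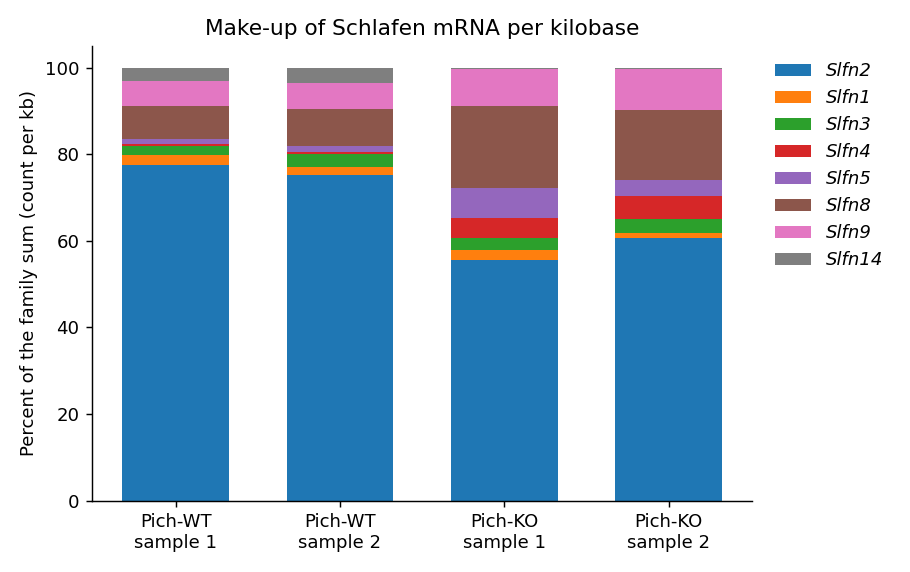
Share of each Schlafen gene in the family's summed normalized count per kb, in percent, with a stacked bar for each sample. *Slfn2* fills 75.3% to 77.5% of the *Pich*-WT bars and 55.6% to 60.7% of the *Pich*-KO bars.

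The *Pich*-KO samples differed from each other most for *Slfn1* and *Slfn5*. *Pich*-KO sample 1 was above sample 2 for 7 of 8 members, all but *Slfn14*, with a median log2 gap of 0.32 over the members. Over all genes whose mean was 10 or more the median gap was 0.01. The median size of the gap there was 0.25 and the 95th percentile 1.39. *Slfn1* passed that percentile at 1.52 and *Slfn5* lay close to it at 1.33. Gaps as large as those of *Slfn2*, *Slfn3*, *Slfn4*, *Slfn9* and *Slfn14* were seen in 40.4% to 63.1% of these genes. For *Slfn8* the share was 19.2%. In 20 interferon-stimulated genes outside the family the gap had the same direction in 20 of 20, with a median of 0.67. LSK markers had this direction as well, in 10 of 10, with a median of 0.68. Neutrophil and monocyte markers had it in 0 of 10, with a median of −2.22. What sets these gaps was not tested.

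The cluster is flanked by other genes that share its chromosomal neighbourhood, and they give a local background. Of 17 protein-coding genes within 250 kb of the outermost Schlafen gene, 3 were called higher and 0 lower, with a median log2 fold change of 0.10. Over all tested genes 7.58% were called higher and 9.6% lower, and 14.7% of those whose mean was 10 or more were called higher. Several neighbours, such as *Rasl10b* and *Gas2l2*, had means below 10. *Taf15*, an RNA-binding TFIID-associated factor, had 912 and 1038 in the *Pich*-KO and 289 and 374 in the *Pich*-WT samples (log2 fold change 1.56, limma adjusted p = 0.000771). *Nle1*, a ribosome assembly factor, and *Lig3*, a DNA ligase, each had a log2 fold change of 1.21 (limma adjusted p = 0.000611 and 0.000935). On the side of *Slfn14*, the large gene *Ap2b1* had a log2 fold change of −0.04. On the side of *Slfn5*, *Unc45b* had −1.73 and *Fndc8* −1.60, neither past the threshold.

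**Figure D3:**
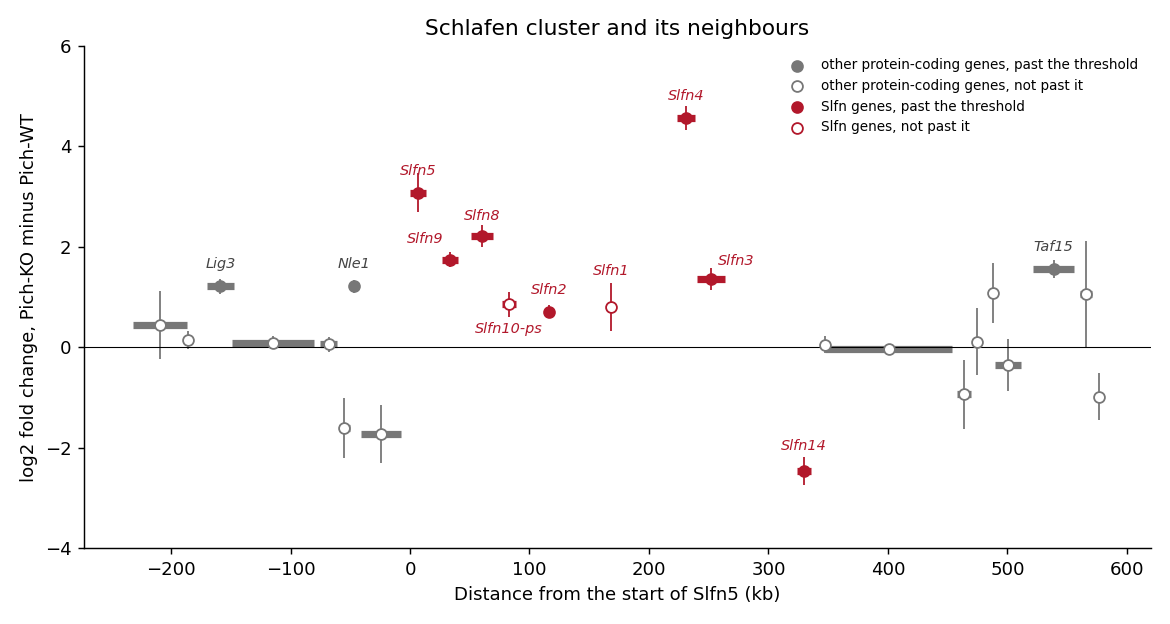
log2 fold change of each gene against its distance in kb from the start of *Slfn5*. Schlafen genes are red and neighbours grey, vertical bars are standard errors, horizontal bars span the gene, and filled points passed an adjusted p of 0.05. The points run from *Slfn4* at 4.56 to *Slfn14* at −2.47, and *Taf15* at 1.56 is the highest neighbour.

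Genes around the known roles of Schlafen proteins were followed by lists chosen by role. The lists were set with earlier results of these data known, so their counts and p-values describe these samples and are no independent test. Of 20 interferon-stimulated genes outside the family, 20 were called higher and 0 lower, with a median log2 fold change of 2.57, against a median of 0.02 over all tested genes. Of genes whose mean was 10 or more, 14.7% were called higher and 18.7% lower. *Ifi44*, an interferon-induced gene of limited known function, had the highest value at 4.21 (limma adjusted p = 0.000233), and *Ifit2*, which binds viral RNA, the lowest at 1.28 (limma adjusted p = 0.0436). Among members, *Slfn4* lay above this whole range and *Slfn2*, *Slfn1* and *Slfn14* below it.

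Of 11 genes of interferon receptor signalling, 4 were called higher and 3 lower, with a median of 0.08. The shares over genes whose mean was 10 or more were 14.7% and 18.7%. *Usp18*, which removes ISG15 and restrains the receptor, had 6690.4 and 3071 in the *Pich*-KO and 229.8 and 245 in the *Pich*-WT samples, a log2 fold change of 4.25 (limma adjusted p = 0.000113). *Jak1*, *Irf2* and *Ifnar1* were called lower, *Jak1* the most at −0.75 (limma adjusted p = 0.0135).

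Counts of the next lists stand beside 14.7% called higher and 18.7% called lower among genes whose mean was 10 or more. Of 13 genes linked to quiescence, 2 were called higher and 7 lower, with a median of −0.49. *Cdkn1c*, a cyclin-dependent kinase inhibitor of stem cells, had the lowest value at −3.08 (limma adjusted p = 0.000249), and *Tsc2*, a brake on mTORC1, the highest at 0.70 (limma adjusted p = 0.0062). *Slfn2*, itself known for quiescence, was on the side of the fewer genes. Of 12 genes for tRNA cleavage and protection, 6 were called higher and 1 lower. The lower gene was *Ang*, angiogenin, the nuclease from which SLFN2 shields tRNA, with 37.1 and 14.8 in the *Pich*-KO and 112 and 92.0 in the *Pich*-WT samples (log2 fold change −2.06, limma adjusted p = 0.016). *Nsun2*, a tRNA methyltransferase, had the highest value at 1.03 (limma adjusted p = 0.000111). Of 12 genes for the rescue of stalled ribosomes, 4 were called higher and 0 lower, from *Ltn1*, a ubiquitin ligase, at 1.5 (limma adjusted p = 0.000356) to *Ascc2* at 0.41 (limma adjusted p = 0.0378).

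**Figure D4:**
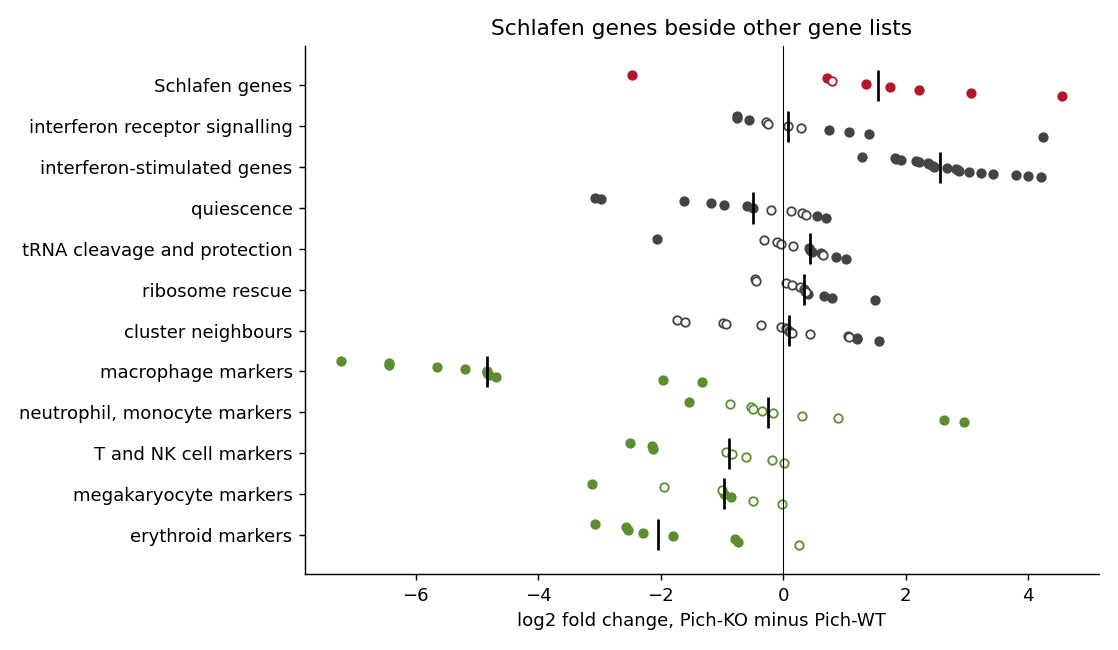
log2 fold change of each gene in the Schlafen family, in lists of related roles, among cluster neighbours and in marker lists of other cell types. Filled points passed an adjusted p of 0.05 and black lines are medians. All 20 interferon-stimulated genes lie right of 0, all 11 macrophage markers left of it, and Schlafen genes on both sides.

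Some markers of other cell types differed between the genotypes. Of all tested genes, 7.58% were called higher and 9.6% lower. Of those whose mean was 10 or more, 14.7% were called higher and 18.7% lower. Of 11 macrophage markers, 11 were called lower, their summed normalized count being 9147 and 7995 in the knockout and 58808 and 60294 in the wild type. Erythroid markers were lower for 7 of 8 genes, with sums of 28645 and 31454 against 155998 and 118243, and megakaryocyte markers for 3 of 7, with sums of 1253 and 1285 against 5147 and 3152. T and NK cell markers were lower for 3 of 8 genes, with sums of 603 and 289 against 872 and 1165. *Lck*, which was not called, made up 464 and 194 of these sums in the knockout and 481 and 601 in the wild type. In this list *Cd8a* and *Cd3e* had normalized counts of at most 7.03 in any sample, as had *Gp1bb* among megakaryocyte markers. Neutrophil and monocyte markers were higher for 2 of 10 genes, *Mpo* and *Ly6c2*, and lower for *Ccr2*, with sums of 59140 and 107063 against 19617 and 21094. *Mpo* carried this sum, which was 4493 and 16571 against 9266 and 8561 without it. Of 10 LSK markers, 1 was called higher, *Ly6a* (log2 fold change 1.74), and 4 lower. The lower genes were *Procr* (−2.88), *Hlf* (−2.37), *Mecom* (−2.10) and *Slamf1* (−0.90). The sums over the LSK markers were 28288 and 17044 against 24896 and 26577. No marker was at 0 in every sample, *Vsig4*, *Cd8a* and *Gp1bb* were at 0 in 1 or 2 samples, and *Kit*, *Cd34* and *Flt3* were present in each. The part of these cells in the Schlafen values was not tested.

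The genes whose 4 values moved most like each member were found by the distance between centred log2 values, where 0 is an identical pattern over the 4 samples. The nearest to *Slfn8* was *Dhx58*, an RNA sensor of the RIG-I family, at 0.14, and the nearest to *Slfn9* was *Trim30a* at 0.096. *Slfn5* had *Tgtp2*, an interferon-inducible GTPase, at 0.32 and *Oasl2* at 0.38, and *Slfn4* had the receptor *Met* at 0.45, *Apol9a* at 0.57 and *Isg15* at 0.62. The nearest to *Slfn2* were *Zfp979* and *Kpna1*, each at 0.04, to *Slfn3* *C2cd3* at 0.04, to *Slfn1* *Hormad2* at 0.19, and to *Slfn14* the NK cell receptor gene *Klrb1c* at 0.064. The distances describe a pattern over 4 samples only.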

How the data were processed

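RNA of sorted fetal liver LSK cells was measured in 2 *Pich*-KO and 2 *Pich*-WT samples, grouped by their titles. The authors deposited a single table of signal per gene, namely read counts divided by a size factor per sample. All values (100% per sample, tolerance 0.1) could be turned back into whole reads. The submitters' notes name Bowtie 0.12.2 and the builds mm8 and mm9. However, 97.8% of 39131 genes had the coordinates of GENCODE M21, so positions are given on GRCm38. The counter and its settings are not given in the sources used here. The table's group means and the authors' own fold changes and p-values were not used.

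limma 3.58.1 (R 4.3.3) was fitted to log2(value + 1) with a mean-variance trend for genes whose mean was 1 or more, with Benjamini-Hochberg adjustment over all of them and a threshold of 0.05. It was also run on simulated reads, with a single setting of the spread between samples for all genes. Real genes may vary otherwise, so that run does not check the calls given here. An exact permutation test of 2 against 2 samples cannot go below p = 0.333. The alternatives tried were another pseudocount (0.1), fitting without the filter on low means, a minimum of 10 in every sample, no variance trend, a replicate block, edgeR 4.0.16 with TMM scaling and DESeq2 1.42.0 on the recovered reads, and leaving out each sample. Deviations of samples with the same number had a correlation of 0.0399 over 13928 genes, which does not pair them.

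The members and lists were chosen with earlier results of these data known. Genes named are every Schlafen row, neighbours within 250 kb, in each role list the genes with the highest and lowest log2 fold change past the threshold, markers, and the 3 genes nearest in pattern to each member, of which some are named. *Irf2* and *Ifnar1* were named after their values were seen. Coding sequences were aligned with Biopython 1.88. The sum of neutrophil and monocyte markers without *Mpo* was added after seeing the data. No protein sequences were used here. The values of some further genes are not reported here.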

Additional observations from a re-analysis of the deposited data

How the results depend on the processing

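Every member kept the sign of its log2 fold change under every alternative, with ranges of 4.42 to 4.70 for *Slfn4*, 2.41 to 3.74 for *Slfn5*, 1.88 to 2.56 for *Slfn8*, 1.58 to 1.91 for *Slfn9*, 1.20 to 1.51 for *Slfn3*, 0.55 to 0.87 for *Slfn2*, 0.04 to 1.56 for *Slfn1* and −2.62 to −2.31 for *Slfn14*. Calls depended more on the fit. Without the variance trend, 0 genes were called higher and 0 lower of all genes, of the members and of every list (3343 and 4034 genes, with 6 and 1 members, at an unadjusted p under 0.05). The cause was not tested. When each sample was left out in turn, limma likewise gave 0 to 0 calls in all of these, with 2825 to 3986 genes higher and 2824 to 4660 lower at an unadjusted p under 0.05. Those fits have 3 samples, and the lone sample of a group is assumed to vary like the other group. Of 20 interferon-stimulated genes, 18 were called higher with a pseudocount of 0.1 or without the filter on the mean and 19 by DESeq2, and 5 quiescence genes were called lower in place of 7 with that pseudocount or without that filter. Without the filter on the mean, 1 quiescence gene was called higher and 0 genes for tRNA cleavage and protection lower. Ribosome rescue genes called lower numbered 2 with at least 10 in every sample, 1 with the replicate block, 2 by edgeR and 1 by DESeq2. With the replicate block 2 neighbours were called lower and 3122 and 3874 genes were called higher and lower in all. The gene strand alone held the ISRE in 1 member, *Slfn5*, against 2.06% of genes. edgeR called 3097 genes higher and 3436 lower, and DESeq2 2605 and 3176. Protein identity was not run, and identity of coding sequences, chosen after seeing the data, took its place.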
